A study of Mus musculus with 3 samples.

Results

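Regulators of G-protein signalling (RGS proteins, encoded by the Rgs genes) were examined in cultured endothelial cells of the mouse aorta, bought as a primary culture. The family was taken as 9 genes named by symbol, Rgs2, Rgs3, Rgs4, Rgs5, Rgs10, Rgs12, Rgs14, Rgs16 and Rgs19, in the tables of 18287 listed genes, and 7 of the 9 had a row. Rgs4 and Rgs5, known as genes of pericytes and smooth muscle, had no row and were not analysed here. The genes were chosen by symbol with the deposited counts and log2 differences of these libraries in view, so all values of the members are descriptions without a test.

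Polyadenylated RNA was sequenced from 3 groups with 1 library each, on a single cell source. Cells of the control group carried the treatment label Control. The glucose oxidase group received 5 mU/mL of the enzyme, which generates hydrogen peroxide from glucose, for 30 min. The last group received the same glucose oxidase exposure and 0.2 mM ethyl-2-hydroxybenzylamine (Et2HOBA), a scavenger of reactive lipid products, for 24 h. Where 3 counts follow each other without labels, they are in this order: control, enzyme alone, enzyme plus scavenger. The order of the exposures is not given in the sources used here, and no library with Et2HOBA alone was analysed. The libraries held 35005089 to 40212212 reads over the listed genes, and each listed gene had at least 5 reads in 1 of them. With 1 library per group there is no replicate check on any difference, and a treatment effect cannot be told apart from a difference between single cultures or libraries. Fewer cells expressing a gene and less RNA per cell cannot be told apart either.

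RGS proteins bind the active, GTP-loaded alpha subunit of a heterotrimeric G protein and speed its GTP hydrolysis, which ends the signal of a G-protein-coupled receptor. Members of the R4 subfamily (Rgs2, Rgs3, Rgs16) are built around little more than the RGS domain, apart from long forms of Rgs3. The R12 subfamily holds Rgs10, Rgs12 and Rgs14, and the RZ subfamily holds Rgs19 and Rgs20. In vessels Rgs2 is known for limiting Gq signals of vasoconstrictor hormones, and mice without it have raised blood pressure.

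The 2 members with the greatest differences lie on chromosome 1 and differed in opposite directions, Rgs2 being lower and Rgs16 higher in both treated libraries. The 250 bases before their RefSeq transcription starts are shown so that the control regions of the pair can be compared, in build GRCm38.p6 and from 5′ to 3′ on the gene's strand. Capitals mark the core of the cAMP response element, TGACG or its reverse complement.
Rgs2, chr1:144004150-144004399, minus strand: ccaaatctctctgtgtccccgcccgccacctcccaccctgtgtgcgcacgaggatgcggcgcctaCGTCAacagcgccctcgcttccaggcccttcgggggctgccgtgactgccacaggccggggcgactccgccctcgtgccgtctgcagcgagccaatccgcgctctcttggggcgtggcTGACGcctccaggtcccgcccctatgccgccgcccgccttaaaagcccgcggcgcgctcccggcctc
Rgs16, chr1:153740103-153740352, plus strand: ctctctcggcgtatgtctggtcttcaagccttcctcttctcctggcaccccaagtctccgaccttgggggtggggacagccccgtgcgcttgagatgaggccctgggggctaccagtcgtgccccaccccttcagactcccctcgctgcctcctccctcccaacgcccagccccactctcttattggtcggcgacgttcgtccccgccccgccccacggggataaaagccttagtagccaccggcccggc

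Of the motifs searched on both strands in windows of 250 bases before to 50 after a start, the Rgs2 window held TGACG at positions -185 to -181 on the opposite strand and at -67 to -63 on its own strand. The Rgs16 window held none of the motifs searched. An Rgs12 window also held TGACG, at -82 to -78, so 2 of the 10 member windows had it. TGACG occurred in 20.8% of the 32851 RefSeq promoter windows. The full cAMP response element TGACGTCA, which contains TGACG, was in 1.79% of windows and in none of the 10 windows that 6 of the members have in that table. The amino acid response element TTGCATCA, bound by ATF4 with its partners, occurred in 0.895% of windows and in none of the member windows. The AP-1 motif TGANTCA occurred in 7.81% of windows and in 1 member window, an Rgs12 start, while the E-box CACGTG occurred in 7.15% and in 1 member window, an Rgs19 start. A match describes letters, not binding, and a window without a match says nothing of the factor. Both printed regions were rich in G and C, at 72.4% for Rgs2 and 66.4% for Rgs16 against a median of 52.4% over all windows.

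Rgs2 (ENSMUSG00000026360.9, chromosome 1, 143999338 to 144004161, minus strand) was the most abundant member in control cells. It had 10796 reads in the control library, 3891 after glucose oxidase and 1403 after glucose oxidase plus Et2HOBA. The count was highest in control and lowest with Et2HOBA. Scaled by size factor, the level after glucose oxidase was 2.60-fold lower than in control, with a 95% interval of 2.50 to 2.69. The level with Et2HOBA was 7.74-fold lower than in control (7.33 to 8.19) and 2.98-fold lower than after glucose oxidase alone (2.81 to 3.17). These and all later intervals of a ratio are exact (Clopper-Pearson) from the reads of both libraries compared, and they cover counting error only. No 50-base stretch of its longest transcript occurs in an annotated transcript of another gene. Its other exon bases and unannotated copies were not searched.

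Rgs16 (ENSMUSG00000026475.7, chromosome 1, 153740349 to 153745468, plus strand), an R4 member that acts on Gi and Gq alpha subunits and is known to be induced by inflammatory stimuli, ran the other way. Control cells gave 73 reads of it, glucose oxidase 415 and the addition of Et2HOBA 1789. The level was 6.08-fold higher after glucose oxidase than in control (95% interval 4.73 to 7.91) and 24.4-fold higher with Et2HOBA (19.3 to 31.2). Between the treated libraries it was 4.01-fold higher with Et2HOBA (3.60 to 4.47). Ranked among all 18287 listed genes by log2 ratio, Rgs16 stood at place 77 from the highest after glucose oxidase and at place 14 with Et2HOBA, both against control. The antisense gene Gm28513 covers 10.1% of the exon bases of Rgs16 on the opposite strand. The libraries were stranded per the labels, but whether counting used strand is not given in the sources used here, so part of those reads could belong to Gm28513, which was not analysed here.

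Rgs3 (ENSMUSG00000059810.18, chromosome 4, 62559847 to 62704001, plus strand), a regulator of Gi and Gq subunits with short and long forms, was lower in both treated libraries, as Rgs2 was. Its counts were 4629, 2183 and 1300, each below the last in the order in which the groups are listed above. The level was 1.98-fold lower after glucose oxidase (95% interval 1.89 to 2.09) and 3.58-fold lower with Et2HOBA (3.37 to 3.81) than in control. The counts are summed over all forms of the gene, so the short and long forms of Rgs3 could not be separated.

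Among the R12 members, which favour Gi alpha subunits, Rgs10 was higher in the treated libraries and Rgs12 was nearly level. Rgs10 (ENSMUSG00000030844.11, chromosome 7, 128373621 to 128418758), a small protein best known from immune cells and platelets, had 38, 62 and 104 reads. Its level with Et2HOBA was 2.72-fold that of control, but at this depth the interval ran from 1.86 to 4.05. After glucose oxidase alone the ratio of Rgs10 was 1.74 (1.15 to 2.69).

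Rgs12 (ENSMUSG00000029101.16, chromosome 5, 34949445 to 35039644), a large protein that also has Ras-binding domains and a GoLoco motif, had 3145, 2556 and 2668 reads. Relative to control its level was 0.869 after glucose oxidase (95% interval 0.824 to 0.916) and 0.843 with Et2HOBA (0.800 to 0.888), and the treated libraries did not differ beyond counting error (ratio 0.970, 0.919 to 1.03). The antisense gene Gm43791 covers 5.50% of its exon bases on the opposite strand. Rgs14 (ENSMUSG00000052087.14, chromosome 13, 55369732 to 55384687), built like Rgs12 with Ras-binding domains and a GoLoco motif, was the member whose count was highest in the library with glucose oxidase alone. Its counts were 80, 120 and 71 reads. Of the 50-base stretches of the longest Rgs14 transcript, 1.33% occur in transcripts of other genes. The ratio to control was 1.60 after glucose oxidase (1.20 to 2.16) and 0.882 with Et2HOBA, where the interval of 0.632 to 1.23 includes equal levels. Between the treated libraries Rgs14 was 1.82-fold lower with Et2HOBA (1.35 to 2.47), but its log2 value of -0.78 became -0.16 when recomputed on the scale of the deposited differences.

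Rgs19 (ENSMUSG00000002458.13, chromosome 2, 181688419 to 181693977), an RZ member also called GAIP that acts on Gi-class subunits, was level across the libraries. Its counts were 2117, 2025 and 2133 reads, so the 3 libraries held nearly the same number. The ratio to control was 1.02 after glucose oxidase (95% interval 0.962 to 1.09) and 1.001 with Et2HOBA (0.942 to 1.06). Both intervals include equal levels, and they hold only for the size factors used here. With total-count scaling the log2 ratio of Rgs19 with Et2HOBA against control was -0.15. The sign of its small ratio to control changed with the scaling of the libraries.

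**Figure D1:**
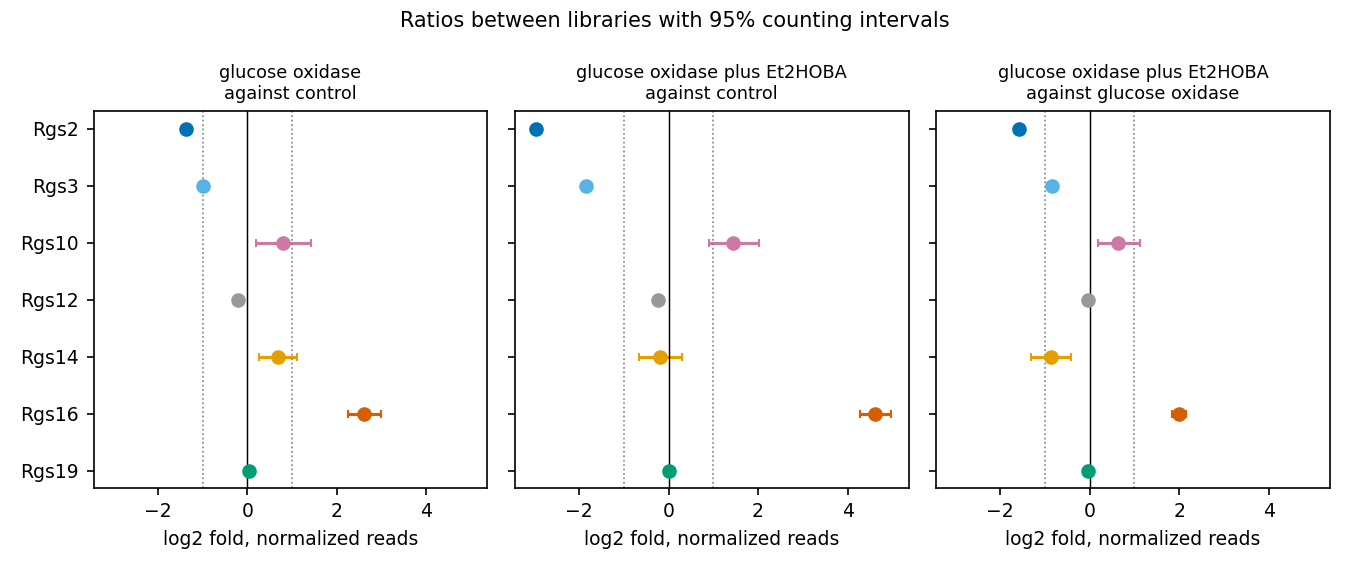
Log2 ratios of normalized reads for the 7 listed RGS genes in each of the 3 comparisons, without a pseudocount. Points are single ratios between 2 libraries, bars are 95% Clopper-Pearson intervals for counting error, and dotted lines mark a log2 value of 1 in either direction: Rgs2 and Rgs3 lie left of 0 and Rgs16 right of 0 in every panel, while Rgs19 lies near 0 in all 3.

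For counts of genes a log2 ratio of (normalized count + 10) was used, with a limit of 1 in either direction. After glucose oxidase 2 of the 7 members passed, Rgs16 at 2.45 and Rgs2 at -1.37, where 12.7% of all listed genes passed, 4.07% higher and 8.6% lower. Among protein-coding genes 9.3% passed, 4.53% higher and 4.76% lower. Rgs3, at -0.98, was just short of the limit, and it passed at -1.04 when libraries were scaled by total count. With both agents 4 of 7 members passed against control, with Rgs16 at 4.42 and Rgs10 at 1.23 on the higher side and Rgs2 at -2.94 and Rgs3 at -1.83 on the lower side. The call of Rgs10 was lost with a pseudocount of 50, at 0.79, and on the deposited scale, at 0.80. In the same comparison, with the pseudocount of 10, 14.7% of all listed genes passed, 6.66% higher and 8.04% lower, and 16.6% of protein-coding genes, 7.33% higher and 9.3% lower. Between the treated libraries 2 of 7 passed, Rgs16 at 1.98 and Rgs2 at -1.57, against 8.55% of all listed genes, 6.39% higher and 2.15% lower. Of protein-coding genes 3.32% passed there, 0.971% higher and 2.35% lower. Since the members were picked with these ratios known, nothing is read from the gap between those shares. In the authors' deposited table of glucose oxidase against control, Rgs16 had a log2 difference of 1.43, Rgs2 of -1.33 and Rgs3 of -0.93. In the authors' deposited table of glucose oxidase plus Et2HOBA against control the values were 3.78 for Rgs16, -2.90 for Rgs2, -1.79 for Rgs3 and 0.80 for Rgs10. The transformation behind those tables shrinks low counts by different amounts in each table, so its values are not compared between tables. The deposited table of the treated libraries listed 7 genes, and no RGS gene was among them.

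Levels of different genes were compared as normalized reads per kilobase of the union of annotated exons, which understates a gene whose long forms are not made. In control the order was Rgs2 at 2884, Rgs19 at 919.9, Rgs3 at 415.3 and Rgs12 at 359.1 reads per kilobase, followed by Rgs16 at 30.2, Rgs10 at 21.5 and Rgs14 at 18.3. The Poisson intervals of neighbours overlapped there for Rgs16 and Rgs10 and for Rgs10 and Rgs14, so the place of Rgs10 is not settled. The intervals of Rgs16 (23.7 to 38.0) and Rgs14 (14.5 to 22.8) did not overlap in control. After glucose oxidase Rgs2 was still first at 1111 and Rgs19 second at 940.7, and Rgs16 had reached 183.8, with an interval that touched that of Rgs3 at 209.4. With Et2HOBA the order was Rgs19 at 920.9, Rgs16 at 736.4, Rgs2 at 372.4, Rgs12 at 302.7, Rgs3 at 115.9, Rgs10 at 58.5 and Rgs14 at 16.1, and no neighbouring intervals overlapped. Rgs16 had thus moved from among the 3 lowest members in control to the place next to Rgs19.

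**Figure D2:**
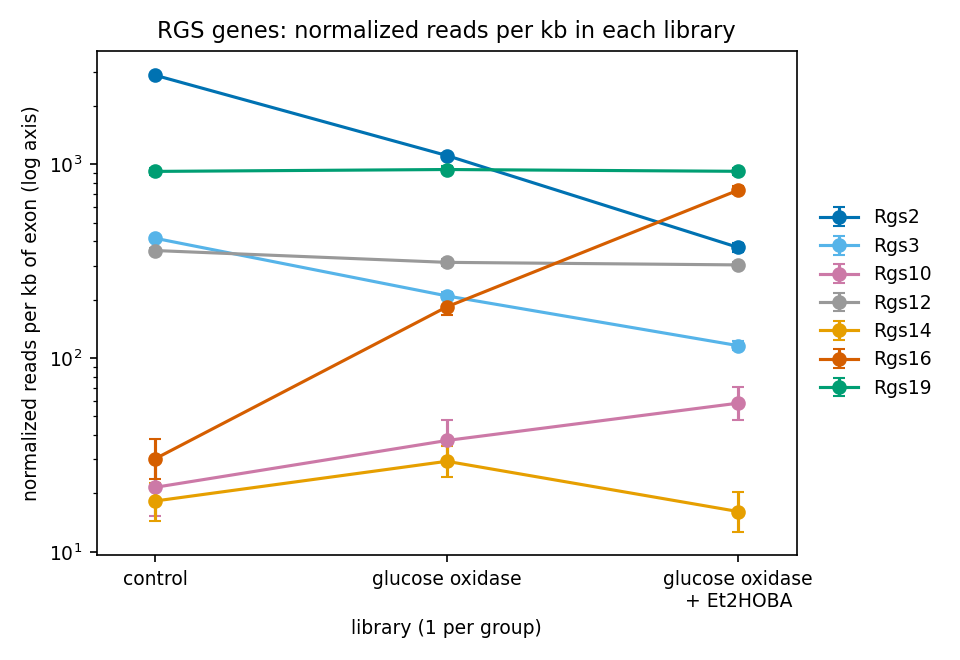
Normalized reads per kilobase of exon for the 7 listed RGS genes in each library, on a log axis. Each point is 1 library and bars are 95% Poisson intervals: the lines of Rgs2 and Rgs16 cross between glucose oxidase (1111 and 183.8) and glucose oxidase plus Et2HOBA (372.4 and 736.4), and Rgs19 stays between 919.9 and 940.7.

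Summed over the 7 members, normalized reads per kilobase were 4649, 2824 and 2523. Rgs2 made up 62.1%, 39.4% and 14.8% of these sums. The share of Rgs16 was 0.651%, 6.51% and 29.2%. Rgs19, whose own level was steady, made up 19.8%, 33.3% and 36.5% of them.

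**Figure D3:**
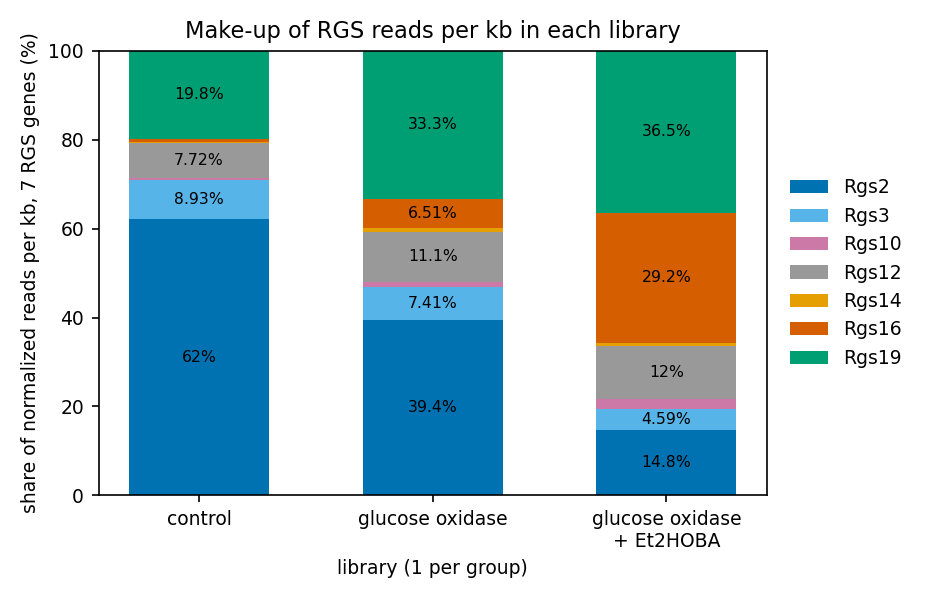
Share of each listed RGS gene in the summed normalized reads per kilobase of the 7 genes, in percent, for each library. Stacked segments add to the whole of each library: the Rgs2 segment is 62.1% in control and 14.8% with Et2HOBA, and the Rgs16 segment reaches 29.2% there.

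The cell label was checked against marker genes. All 9 endothelial markers had rows, with summed counts of 204583 to 328218 reads per library, and Cdh5, the cadherin of endothelial junctions, had 55360, 45034 and 63665, with its highest count in the library with Et2HOBA. The endothelial sum was lower in both treated libraries (328218, 204583 and 209290 reads), with Tek, the angiopoietin receptor, at 6786, 2877 and 1688 reads and Vwf, von Willebrand factor, at 46607, 21567 and 12545, while Pecam1 had 37351, 26919 and 29562. Kdr had 61640, 27584 and 24227 reads, Tie1 had 78258, 46273 and 42662, and Erg had 5936, 3887 and 2697. Esam and Egfl7 differed less, at 17876, 15726 and 16604 reads and at 18404, 14716 and 15640. The part of the endothelial genes in the Rgs2 and Rgs3 values was not tested. Of 11 smooth muscle and pericyte markers 8 had rows. Apart from Mcam, which endothelial cells also express and which had 7060 to 7592 reads, these 7 genes had 2 to 73 reads in any library, and Cnn1, Kcnj8 and Abcc9 had no row. Their counts were low, with 19, 35 and 73 reads for Myh11, 21, 43 and 71 for Pdgfrb and 2, 15 and 25 for Cspg4. Notch3 had 20, 61 and 46 reads, Acta2 had 8, 18 and 13, Des had 8, 9 and 9 and Tagln had 9, 9 and 4. Of 6 fibroblast markers 3 had rows, with sums of 1366, 2639 and 3929 reads, of which Pdgfra had 107, 1325 and 2821 reads, Pi16 had 1231, 1284 and 1085 and Col1a1 had 28, 30 and 23, and Col1a2, Dcn and Lum had no row. Of 6 macrophage markers 3 had rows, with sums of 8407, 17155 and 27895 reads. Nearly all of that sum was Cd68, a lysosomal protein that other cells make too, while Csf1r had 6 to 12 reads, Lyz2 had 186, 76 and 86 and Ptprc, Adgre1 and Itgam had no row. The 3 listed lymphocyte and platelet markers of 5 summed to 480 to 570 reads. The fibroblast and macrophage sums were higher where Rgs16 was higher, through Pdgfra and Cd68 respectively, and the other 4 listed markers of these lists did not follow that order. The part of these cell types in the Rgs16 values was not tested.

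Among other genes with an RGS domain, a list of 26 had 15 with rows. None of the 15 passed the limit after glucose oxidase (median log2 ratio 0.07, against -0.01 over all listed genes). With Et2HOBA 1 was higher and 3 were lower than control (median 0.15, against -0.0002 over all listed genes). Of all listed genes 12.7% passed in the first comparison, and in the second 6.66% were higher and 8.04% lower. Rgs20, the RZ relative of Rgs19, had 92, 147 and 252 reads, or a 2.72-fold higher level with Et2HOBA than in control (95% interval 2.14 to 3.49). On the opposite strand the gene Atp6v1h covers 3.0% of the exon bases of Rgs20. Grk4, a receptor kinase with an RGS domain, had 169, 113 and 73 reads. The other 2 lower genes, named after their values were seen, were Rgs7, with 49, 19 and 5 reads, and Axin2, a feedback gene of Wnt signalling, with 33, 14 and 6 reads.

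The G proteins on which RGS proteins act showed smaller differences than Rgs2 and Rgs16. Of 15 alpha subunit genes 11 had rows, and none passed the limit after glucose oxidase (median -0.17). With Et2HOBA 2 were higher and 1 lower than control (median -0.21). For this list and the next, 12.7% of all listed genes passed after glucose oxidase. With Et2HOBA 6.66% of all listed genes were higher and 8.04% lower. Gnai3, an inhibitory alpha subunit, had 5428, 7353 and 12354 reads and was 2.26-fold higher with Et2HOBA than in control (95% interval 2.19 to 2.34). Its relative Gnai2 had 39614, 29563 and 30984 reads, and Gnaq, the alpha subunit restrained by Rgs2, had 5949, 5589 and 5172 reads. Of 13 listed beta and gamma subunits of 16, none passed after glucose oxidase (median -0.06) and 1 was higher with Et2HOBA (median -0.14). That gene was Gng5, with 3461, 5199 and 7247 reads.

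Endothelial receptors of the G-protein-coupled class formed a list of 40 genes, of which 25 had rows. After glucose oxidase 1 was higher and 3 were lower than control (median -0.23), and with Et2HOBA 3 were higher and 5 lower (median -0.45), where 12.7% and 14.7% of all listed genes passed in either direction. Aplnr, the apelin receptor, had 128, 11 and 7 reads, and Adora2a, an adenosine receptor coupled to Gs, had 158, 40 and 20. Lpar1 and Lpar4, both receptors for lysophosphatidic acid, differed in direction, with 203, 621 and 971 reads for Lpar1 and 1909, 758 and 696 for Lpar4. Ackr3, an atypical chemokine receptor, had 1462, 2416 and 3892 reads.

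Of 27 effectors 25 had rows, and 1 passed the limit in each comparison with control, on the higher side (medians 0.03 and -0.004). It was Prkacb, a catalytic subunit of protein kinase A, with 14146, 29434 and 43142 reads. The last list, other regulators of receptors and G proteins, had 12 of 14 genes with rows. After glucose oxidase 2 were higher and 1 was lower (median -0.002), and with Et2HOBA 2 were higher and 3 lower (median -0.12). Beside this list and the effectors, 4.07% of all listed genes were higher and 8.6% lower after glucose oxidase. With Et2HOBA those shares were 6.66% and 8.04%. Arrb1, an arrestin that uncouples receptors, had 12290, 8007 and 4686 reads. The partner proteins of the calcitonin receptor-like receptor differed in direction, with 18783, 9800 and 7846 reads for Ramp2 and 1625, 2205 and 4159 for Ramp3. Rasd1, a Ras-like activator of Gi signalling, had 1187, 527 and 429 reads, and Gpsm3, a GoLoco protein, had 47, 123 and 104.

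**Figure D4:**
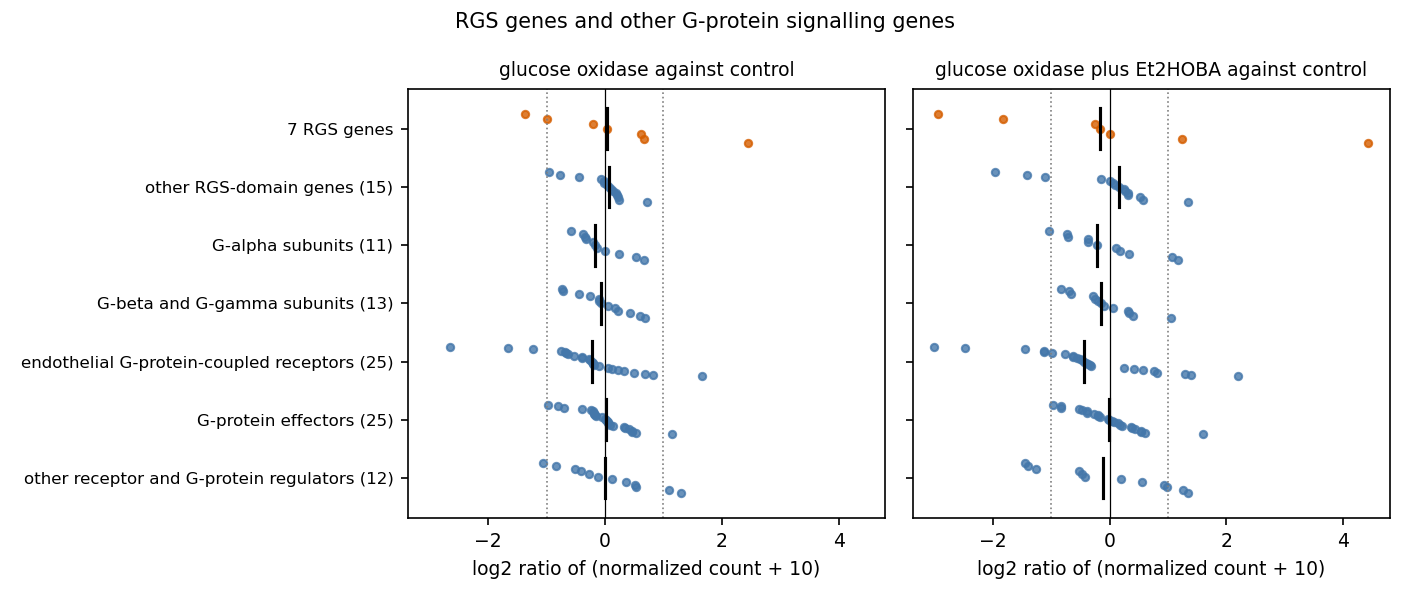
Log2 ratios of (normalized count + 10) against control for the 7 listed RGS genes and for 6 lists of other G-protein signalling genes, with the number of listed genes in brackets. Each point is a gene, black bars are medians and dotted lines mark a log2 ratio of 1 in either direction: Rgs16 reaches 2.45 and 4.42, beyond every other gene shown on the higher side, and the list medians lie between -0.45 and 0.15.

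Genes with a course most like that of the 3 members that differed most were found by the distance between their log2 ratios to control, over 3 libraries, among 8648 genes with a mean normalized count of 500 or more. For Rgs16 the nearest was Hspa1a, an inducible heat shock protein, at a distance of 0.36, with 66, 483 and 1505 reads. The transcription factors Atf3 (107, 667 and 1630 reads) and Fosl1 (156, 1122 and 2267 reads) came next, at 0.65 and 0.78. For Rgs2 the nearest were Pole (1304, 447 and 167 reads), Ifi27l2a (5748, 1966 and 788 reads) and Csf2rb2 (1326, 471 and 148 reads), at distances of 0.07 to 0.14. For Rgs3 they were Vsir (2742, 1290 and 778 reads), Zfp366 (1740, 793 and 486 reads) and Col8a1 (51992, 25363 and 15151 reads), at 0.02 to 0.06. Likeness over 3 libraries is a weak description.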

How the data were processed

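Stranded libraries of polyadenylated RNA were made from the cells, per the labels. STAR, featureCounts and the mm10 build are named in the submitters' processing notes; their versions, the counting options and the annotation are not given in the sources used here. The deposited table of glucose oxidase plus Et2HOBA against control held raw read counts of both libraries, and per the file headers log-normalized values with their difference (log2). The deposited tables of glucose oxidase against control and between the treated libraries held symbols and log2 differences without a header, for 18287 and 7 genes. Gene positions matched GENCODE release M21 for all 17878 genes with the same ID version.

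The glucose oxidase library's counts came from inverting the transformation: 100% of 18275 genes came within 0.01 of a whole read (largest distance 0.000137), and 3.31% did after a shift of the control counts by 1 read. The recovered counts gave the deposited differences within 2.0e-08 through the variance-stabilizing function of DESeq2 1.42.0, a step that no label states. Normalization used size factors by the median of ratios (1.032 control, 0.965 glucose oxidase, 1.039 with Et2HOBA). No count model was fitted, since 1 library per group gives no spread, and edgeR 4.0.16 served only for TMM scaling. Other tools were Python 3.11.15, scipy 1.17.1 and R 4.3.3; the scripts were tested on simulated data. The 9 members and the lists were chosen with earlier results of these data known. All 9 members are named. From each list at most 5 genes were named, those with 100 or more reads in 1 library and a log2 ratio of 1 or more in size in either comparison with control, by the larger ratio. Pattern neighbours are the 3 nearest non-members for each of 3 members. Genes named beside these for their role (Gnai2, Gnaq, Gnb5, Rgs9bp) or as neighbours in the genome were added after their values were seen. Alternatives were pseudocounts of 1 and 50, total-count and TMM scaling, protein-coding size factors, a mean normalized count of 10 or more, the deposited scale and limits of 0.5 and 2.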

Additional observations from a re-analysis of the deposited data

How the results depend on the processing

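Over the 3 comparisons and the alternatives that keep the limit, no member past the limit changed direction. Total-count scaling moved the median of all genes by -0.13 with Et2HOBA against control, and Rgs2 read -3.09 and Rgs3 -1.98 there. The log2 ratio of Rgs16 was 1.99 to 2.59 after glucose oxidase and 3.88 to 4.59 with Et2HOBA outside the deposited scale. Between the treated libraries the recomputed deposited scale gave 1.02 for Rgs16, -1.09 for Rgs2, -0.54 for Rgs3 and -0.16 for Rgs14. With Et2HOBA against control the G-alpha median was -0.36 with total-count scaling and -0.06 without low genes, and the median of other RGS-domain genes was 0.002 with total-count scaling. The small ratio of Rgs19 to control ranged from -0.02 to 0.04 after glucose oxidase and from -0.15 to 0.002 with Et2HOBA. Rgs10, Rgs14 and control Rgs16 rest on 120 reads or fewer, which limits their precision.

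Members past the limit after glucose oxidase were 1 higher and 1 lower. They became 3 higher and 2 lower at a limit of 0.5, where 6175 of the 18287 listed genes passed in either direction. At a limit of 2 they were 1 higher and 0 lower, where 526 of the listed genes passed. Total-count scaling and protein-coding size factors each gave 2 lower, with Rgs3 added. With Et2HOBA against control 2 were higher and 2 lower. A pseudocount of 50, the deposited scale and a limit of 2 each left 1 higher, and a limit of 2 left 1 lower. Between the treated libraries 1 was higher and 1 lower, against 2 and 3 at a limit of 0.5 and 0 and 0 at a limit of 2.

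Counts of genes past the limit follow in the order glucose oxidase against control, glucose oxidase plus Et2HOBA against control and treated against treated. Of the 18287 listed genes, those past the limit in either direction numbered 2317, 2688 and 1563. They were 4243, 4494 and 3311 with a pseudocount of 1, and 1163, 1696 and 585 with 50. On the deposited scale they were 734, 1768 and 43. A limit of 0.5 gave 6175, 7332 and 4670, and a limit of 2 gave 526, 695 and 391. No paired analysis was possible because each group has 1 library. The cause of these changes was not tested.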

Other observations

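Listed protein-coding genes next to some members in the genome were read as values. Npl, 190304 bases before Rgs16, had 69, 16 and 11 reads, in the order control, enzyme alone, enzyme plus Et2HOBA. Uchl5, 191872 bases from Rgs2, had 1087, 956 and 1110 reads. Tcea2, 348 bases from Rgs19, had 692, 602 and 440 reads. Next to Rgs3, Col27a1, 510003 bases away, had 380, 154 and 73 reads.

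Rgs7, which pairs with the beta subunit Gnb5 in the R7 subfamily, was at a 9.86-fold lower level in the library with Et2HOBA than in control, with a wide 95% Clopper-Pearson interval of 3.95 to 31.7 on 49 and 5 reads. Gnb5 had 379, 259 and 237 reads. Rgs9bp, an anchor protein of R7 members, had 47, 43 and 18 reads.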
